A study of Mus musculus with 4 samples.

Results

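Netrins are guidance cues, and the genes described here are those of the netrins and of their receptors in sorted amacrine cells of the mouse retina, which are mostly inhibitory neurons. The set holds 10 genes, taken by symbol from a table of 55471 genes: the secreted netrins Ntn1 and Ntn4, the membrane-anchored netrins Ntng1 and Ntng2, the receptors Dcc and Neo1, and the receptors Unc5a, Unc5b, Unc5c and Unc5d. All 10 were found in the table. The cells came from C57BL6 mice at postnatal day 6 to 7 of the genotype Gbx2-CreERT2-IRES-EGFP that also carried Ai9. In these mice Gbx2-expressing cells carry EGFP and a Cre recombinase that tamoxifen activates, and Ai9 makes tdTomato in every cell in which Cre has acted. Every sorted cell had tdTomato. One group was GFP-negative (cell type 1, 2 libraries, replicates 2 and 6), and the other was GFP-positive (cell type 2, 2 libraries, replicates 2 and 3). Each RNA sample came from 750 to 2500 cells, and 4 replicates from 3 litters are stated, of which 2 libraries per fraction were analysed here. The labels and design text do not state when tamoxifen was given, and a cell can lack GFP at the sort after having expressed Gbx2 earlier.

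Netrins bind receptors on growing axons and dendrites. Binding to DCC commonly attracts a growth cone, and UNC5 receptors, alone or together with DCC, mediate repulsion. UNC5 proteins also bind the FLRT adhesion proteins, neogenin (the product of Neo1) also binds the RGM proteins, and the netrin-G proteins bind leucine-rich repeat partners of the NGL family in place of DCC or UNC5. In the retina, netrin-1 at the optic disc guides ganglion cell axons that carry DCC, and several UNC5 and FLRT proteins have been studied in the layering of the inner retina.

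Total counts ran from 41040667 to 44689917 per library. Levels are in CPM, counts scaled to a common library size after TMM adjustment. Values for single libraries follow the order GFP-negative replicates 2 and 6, then GFP-positive replicates 2 and 3, and a mean ± SD covers n = 2 libraries. The sort marker Gbx2 stood at 28.7 and 55.5 CPM in the GFP-negative and at 602 and 496 CPM in the GFP-positive libraries. All 10 amacrine markers checked had counts in every library, with sums of 3941 and 5943 CPM in the GFP-negative and of 2794 and 2019 CPM in the GFP-positive libraries. Markers of other retinal cells were also present. All 16 rod markers had counts in every library, and they summed to 9263 and 2257 CPM in the GFP-negative and 10510 and 17380 CPM in the GFP-positive libraries. GFP-negative replicate 6 and GFP-positive replicate 3 thus lay at the ends of this range, and the replicate 2 libraries lay close together. Like the rod markers, the 9 bipolar cell markers (1045 and 417 against 1252 and 1715 CPM) and the 5 horizontal cell markers (139 and 52.1 against 208 and 186 CPM) had higher sums in both GFP-positive libraries. The 9 ganglion cell markers summed to 304 and 354 CPM in the GFP-negative and to 222 and 98.2 CPM in the GFP-positive libraries, where Pou4f2, a defining marker, was at 0 in replicate 3. The 9 Müller glia markers summed to 1694 and 2094 CPM against 744 and 907 CPM, and Dkk3 made up most of the GFP-negative sums. Without Dkk3 the sums overlapped, at 686 and 516 against 500.0 and 776 CPM. Fewer cells of a type and less RNA per cell cannot be told apart in such bulk samples.

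Among the 10 genes, the means of the fractions differed most in 2 UNC5 receptor genes. Unc5d fell from 69.2 ± 15.2 CPM in GFP-negative to 14.3 ± 4.20 CPM in GFP-positive cells and was the 1 member to pass the test (log2 fold change -2.27 ± 0.37, standard error, edgeR quasi-likelihood adjusted p = 0.0300). Unc5b stood at 8.67 ± 1.24 CPM in GFP-negative and at 1.05 ± 0.335 CPM in GFP-positive cells and did not pass (-3.04 ± 0.66, edgeR adjusted p = 0.0828). Of the 10 genes, 9 had enough counts to be tested and Ntn1 did not. Of the 9, Unc5d was called lower and 0 were called higher, beside 1.10% of all 17940 tested genes called in either direction and 0.870% called lower. Their median log2 fold change was -0.81 and 6 of 9 values were negative, against a median of 0.04 over all genes tested. The CPM ranges of the fractions did not overlap for 7 of the 9, a pattern that 43.8% of all tested genes also showed. For 1 gene alone, exact permutation of the 4 libraries gives a two-sided p of 0.333 at the lowest. Each call therefore rests on the spread that edgeR shares across genes. The labels do not say from which animal each library came, so p-values measure the spread between these libraries.

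**Figure D1:**
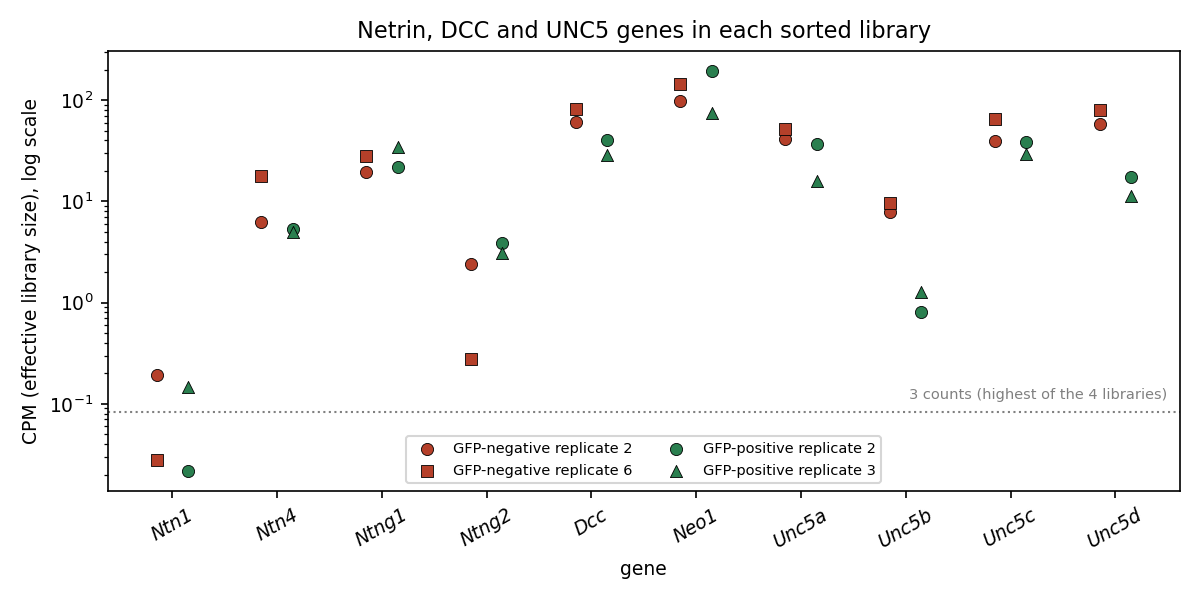
Level of each of the 10 genes in each library, in CPM on a log axis. Points are single libraries, red for GFP-negative and green for GFP-positive, and the dotted line marks the CPM of 3 counts (0.0838, the highest of the 4 libraries). The Unc5b and Unc5d points of the fractions lie far apart, those of Ntng1 and Neo1 overlap, and Ntn1 lies at the level of single counts.

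Among the secreted netrins, Ntn1, the classical axon guidance netrin, was barely detected. It had 8 and 1 counts in the GFP-negative and 1 and 7 counts in the GFP-positive libraries. The highest of these values was 0.191 CPM, with an exact 95% Poisson interval of 0.0826 to 0.377 CPM that covers counting error only. The fractions overlapped, and no difference was detectable at this depth. Ntn4, a netrin related to laminins and known from basement membranes, stood at 6.19 and 18.0 CPM in the GFP-negative and at 5.32 and 4.98 CPM in the GFP-positive libraries. Its mean difference rested on GFP-negative replicate 6: the fitted log2 fold change was -1.22 ± 0.61 with that library (edgeR adjusted p = 0.458) and -0.26 without it. GFP-negative replicate 2 was 1.17-fold above GFP-positive replicate 2. Ntn4 (ENSMUSG00000020019) lies on chromosome 10 at 93640681 to 93747207, plus strand, and Ntn1 (ENSMUSG00000020902) on chromosome 11 at 68209364 to 68400823, minus strand (GRCm38, GENCODE M21).

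The membrane-anchored netrins, which sit on the cell surface through a lipid anchor, did not pass in either direction. Ntng1 stood at 19.6 and 28.1 CPM in the GFP-negative and at 21.8 and 34.6 CPM in the GFP-positive libraries. The groups overlapped, and the log2 fold change of 0.25 ± 0.39 (edgeR adjusted p = 0.852) turned negative in 2 fits, without replicate 2 of the GFP-negative (-0.05) or replicate 3 of the GFP-positive libraries (-0.13). Ntng2 was less abundant, with 101 and 10 counts in the GFP-negative and 178 and 146 counts in the GFP-positive libraries. These are 2.41, 0.28, 3.89 and 3.07 CPM, and GFP-negative replicate 6 stood far below the other 3 libraries. Its log2 fold change of 1.31 ± 0.87 did not pass (edgeR adjusted p = 0.588), and the value was 3.57 or 0.53 when the GFP-negative replicate 2 or 6 was left out. The Ntng2 value is uncertain, since 558 exonic bases are shared with 6530402F18Rik, an RNA gene on the same strand with 493, 90, 421 and 524 counts in the same library order. Ntng1 (ENSMUSG00000059857) lies on chromosome 3 (109780040 to 110144011, minus strand) and Ntng2 (ENSMUSG00000035513) on chromosome 2 (29194541 to 29253005, minus strand).

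The receptors of the DCC family were among the more abundant members. Neo1, which encodes neogenin, stood at 98.5 and 143.8 CPM in the GFP-negative and at 195 and 75.1 CPM in the GFP-positive libraries. The GFP-positive libraries held the highest and the lowest value of the 4, so the spread within that fraction exceeded the difference between the means (log2 fold change 0.16 ± 0.45, edgeR adjusted p = 0.929). Leaving out GFP-positive replicate 2 turned the value negative (-0.71), as did leaving out the GFP-negative library of the same number (-0.15). Dcc, the receptor through which netrin-1 attracts axons, stood at 60.6 and 82.4 CPM in the GFP-negative and at 40.5 and 28.6 CPM in the GFP-positive libraries. The groups did not overlap, and the nearest libraries were 1.50-fold apart. The log2 fold change of -1.05 ± 0.34 did not pass (edgeR adjusted p = 0.253), and it ran from -1.35 to -0.81 over the alternatives. The ganglion cell and amacrine marker sums were also higher in both GFP-negative libraries, and their part in the Dcc value was not tested. The amacrine sums were 3941 and 5943 against 2794 and 2019 CPM. Dcc (ENSMUSG00000060534) spans 71253634 to 72351069 on chromosome 18, minus strand, and Neo1 (ENSMUSG00000032340) spans 58874687 to 59036441 on chromosome 9, minus strand.

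All 4 UNC5 receptor genes were above the level of single counts in every library, and all 4 had higher values in both GFP-negative libraries than in either GFP-positive library, as 43.8% of all tested genes had in one direction or the other. The sizes differed widely, and for Unc5c the nearest libraries were almost equal. Unc5c, a receptor of repelled axons, stood at 39.3 and 65.7 CPM in the GFP-negative and at 39.0 and 29.4 CPM in the GFP-positive libraries. The replicate 2 libraries differed 1.01-fold, and the log2 fold change of -0.62 ± 0.36 did not pass (edgeR adjusted p = 0.540). It was -1.0 or -0.20 when the GFP-negative replicate 2 or 6 was left out. Unc5a stood at 41.1 and 51.8 CPM against 36.8 and 16.0 CPM. GFP-positive replicate 3 held the low value, and the log2 fold change was -0.81 ± 0.43 (edgeR adjusted p = 0.489), -1.55 when replicate 2 and -0.34 when replicate 3 of that fraction was left out. It shares 34 exonic bases with Hk3 on the opposite strand, and Unc5c shares 118 with Gm15688 (41, 36, 32 and 30 counts). Unc5a (ENSMUSG00000025876) lies on chromosome 13 at 54949411 to 55006018 and Unc5c (ENSMUSG00000059921) on chromosome 3 at 141465216 to 141834924, both on the plus strand.

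Unc5d, an UNC5 receptor that also binds FLRT2, had 2443 and 2861 counts in the GFP-negative and 790 and 539 counts in the GFP-positive libraries. In CPM these are 58.4 and 79.9 against 17.3 and 11.3, so both GFP-negative values lay above both GFP-positive values, and the nearest libraries were 3.38-fold apart. The means differed 4.83-fold. The nearest libraries were the replicate 2 pair, whose rod marker sums were 9263 and 10510 CPM. Ganglion cell and amacrine marker sums were higher in both GFP-negative libraries, as was Dkk3, and their part in the Unc5d difference was not tested. The direction was the same in every alternative run (log2 fold change -2.63 to -2.01), and the call was not: leaving out a GFP-negative library gave an edgeR adjusted p of 0.0323 (replicate 2) or 0.282 (replicate 6), and leaving out a GFP-positive one gave 0.0618 (replicate 2) or 0.214 (replicate 3). It was 0.0843 with edgeR's earlier (legacy) quasi-likelihood fit, 0.0586 with no filter on low counts, 0.0524 in limma-voom and 3.495e-06 in DESeq2. DESeq2 called 4.39% of all genes and 2 members, Unc5d and Unc5b, and limma-voom called 0.513% of all genes and 0 members. Unc5d (ENSMUSG00000063626) lies on chromosome 8 at 28646717 to 29219636, minus strand. Its span holds the transcript gene Svet1 on the same strand, which shares none of its exonic bases and had 146, 9, 38 and 176 counts in the same library order.

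Unc5b, an UNC5 receptor known from blood vessels as well as neurons, had 326 and 342 counts in the GFP-negative and 37 and 61 counts in the GFP-positive libraries. At 7.79 and 9.55 against 0.81 and 1.28 CPM, the nearest libraries were 6.08-fold apart and the means 8.29-fold. The log2 fold change of -3.04 was the lowest of the members and ran from -3.42 to -2.77 over the alternatives. It did not pass in edgeR in any fit (adjusted p = 0.0605 to 0.603) or in limma-voom (adjusted p = 0.162), and passed in DESeq2 (adjusted p = 0.000287). Of 11 endothelial and pericyte markers, 8 or 10 had counts in a library, and they summed to 101 and 65.6 CPM in the GFP-negative and 123 and 134 CPM in the GFP-positive libraries. Their part in the Unc5b difference was not tested. Of these markers, Cdh5 and Tek were at 0 in both replicate 2 libraries. Unc5b (ENSMUSG00000020099) lies on chromosome 10 at 60762593 to 60831581, minus strand.

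**Figure D2:**
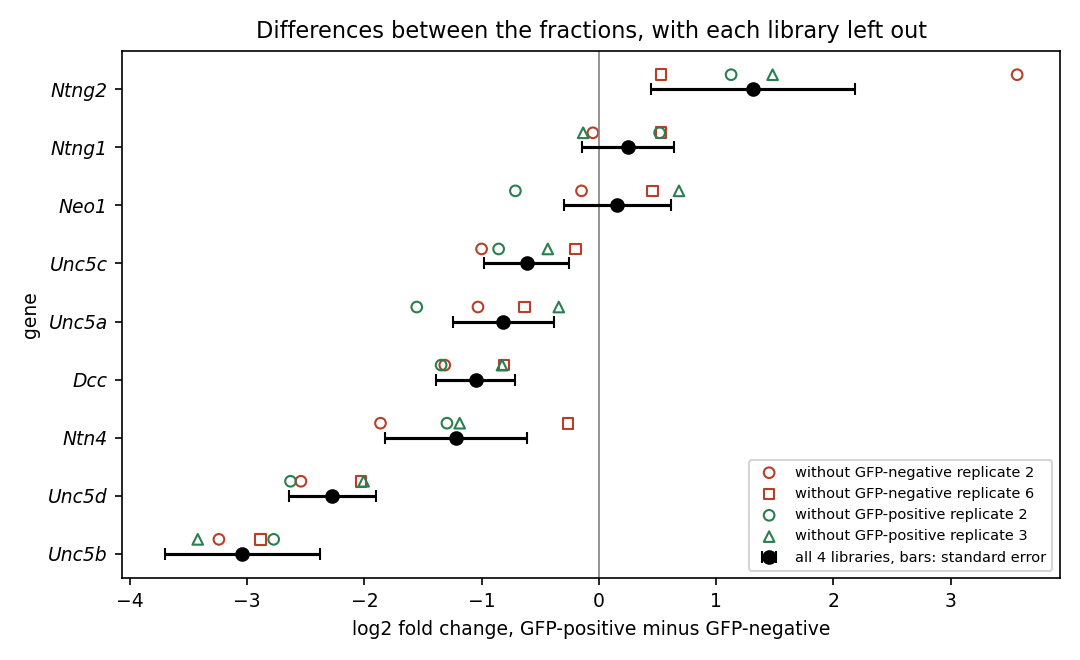
Log2 fold change of the 9 tested genes, GFP-positive minus GFP-negative. Black points with bars are edgeR estimates ± standard error from all 4 libraries, and open symbols are the fits with 1 library left out. Unc5b and Unc5d stay below -2 in every fit, and Ntng1 and Neo1 fall on both sides of 0.

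Promoter sequences are given for Unc5b, the UNC5 gene with the largest difference of means (8.29-fold), beside its relatives Unc5a and Unc5c (1.76-fold and 1.53-fold). No window was available for Unc5d, the only member called in the main analysis. Each runs 5′ to 3′ on the gene's strand from 250 bases before to 50 bases after a RefSeq transcription start (GRCm38.p6). They lie at chr10:60831532-60831831 (minus strand), chr13:54949161-54949460 (plus strand) and chr3:141465314-141465613 (plus strand). Capitals mark the GC box letters GGGCGG on either strand (printed as CCGCCC where they lie on the opposite one), with overlapping matches counted separately.
Unc5b: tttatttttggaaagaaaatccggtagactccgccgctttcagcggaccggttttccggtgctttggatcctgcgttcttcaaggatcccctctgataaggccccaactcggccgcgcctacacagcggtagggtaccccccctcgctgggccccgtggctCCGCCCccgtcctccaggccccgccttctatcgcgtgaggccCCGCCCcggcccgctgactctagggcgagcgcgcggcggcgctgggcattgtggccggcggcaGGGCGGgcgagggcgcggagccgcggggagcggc
Unc5a: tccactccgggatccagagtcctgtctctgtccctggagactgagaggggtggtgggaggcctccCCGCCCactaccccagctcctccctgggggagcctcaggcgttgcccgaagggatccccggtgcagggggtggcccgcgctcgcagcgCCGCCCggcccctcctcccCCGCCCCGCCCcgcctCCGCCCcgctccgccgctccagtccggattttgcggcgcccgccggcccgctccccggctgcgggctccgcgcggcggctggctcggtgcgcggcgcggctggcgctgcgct
Unc5c: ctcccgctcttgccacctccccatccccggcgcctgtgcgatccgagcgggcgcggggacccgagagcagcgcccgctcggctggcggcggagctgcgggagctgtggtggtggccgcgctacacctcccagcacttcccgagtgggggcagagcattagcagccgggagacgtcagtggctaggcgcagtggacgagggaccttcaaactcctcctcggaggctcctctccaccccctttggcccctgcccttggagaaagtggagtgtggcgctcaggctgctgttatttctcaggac

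The Unc5b window held 3 GC box matches, the Unc5a window 5 and the Unc5c window 0, and 35.7% of all 32851 promoter windows in the table held at least 1. Their G and C content was 69.7%, 78.3% and 68.3%, and they held 36, 37 and 24 CpG dinucleotides, against medians of 52.7% and 7 over all windows. Neither TAATTA, the core letters bound by many homeobox factors (5.29% of all windows), nor the TATA box letters TATAAA, read on both strands (13.6%), was present in any of the 3. The same held for the windows of Ntn4, Ntng1, Ntng2 and Neo1, the other members with a window. Such matches describe letters, not binding.

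Compared per exonic kilobase, so that genes of different length can be set side by side, the order of the members also differed between the fractions. In GFP-negative cells Neo1 (13.9 ± 3.68 CPM per kilobase) and Unc5a (11.1 ± 1.82) had the highest levels and overlapped each other. Unc5d followed at 7.50 ± 1.65 CPM per kilobase and Dcc at 5.43 ± 1.17, with ranges that just missed each other. Ntn4, Ntng1 and Unc5c lay between 2.74 and 3.23 CPM per kilobase and overlapped, and Unc5b (1.39 ± 0.20), Ntng2 (0.34 ± 0.38) and Ntn1 (0.02 ± 0.02) came below, each apart from the next. In GFP-positive cells Neo1 (15.5 ± 9.76 CPM per kilobase) and Unc5a (6.34 ± 3.52) again had the highest means. Their ranges over the libraries overlapped with each other, and that of Unc5a with Ntng1 (3.42 ± 1.10). Within each single library Neo1 lay above Unc5a, at 11.3 and 16.5 against 9.85 and 12.4 in GFP-negative cells. In GFP-positive cells these were 22.4 and 8.61 against 8.82 and 3.85. Unc5a lay above Ntng1 in GFP-positive replicate 2 (8.82 against 2.64) and below it in replicate 3 (3.85 against 4.20). Unc5d stood at rank 6 with 1.55 ± 0.46 CPM per kilobase, overlapping its neighbours Unc5c and Ntn4. The order depends on the length used: with the longest transcript in place of all exons, 5 of 10 members kept their rank in GFP-positive cells. It also depends on the library, since 6 of 10 kept it in GFP-positive replicate 3 alone. Unc5c has 19135 exonic bases in all and 9646 in its longest transcript.

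The makeup of the UNC5 family within a library does not depend on how libraries are scaled against each other. Summed over the 4 genes, the UNC5 level was 19.5 and 26.1 CPM per kilobase in the GFP-negative libraries and 12.9 and 6.82 in the GFP-positive libraries. Unc5d made up 32.5% and 33.3% of that sum in the GFP-negative and 14.6% and 18.0% in the GFP-positive libraries. Unc5b made up 6.39% and 5.86% against 1.01% and 3.00%. Unc5a was the main UNC5 gene in every library, with 50.6% and 47.7% against 68.6% and 56.4%, and Unc5c held 10.5% and 13.2% against 15.8% and 22.6%. By longest transcript the Unc5c share was 18.5% and 22.6% against 26.5% and 35.8%, and that of Unc5d 28.8% and 28.8% against 12.3% and 14.4%. None of the 4 genes' shares overlapped between the fractions by either length. With 2 libraries per fraction this is common, since the CPM ranges of 43.8% of all tested genes did not overlap. How often shares within other gene families overlap was not tested. By longest transcript the Unc5a shares came close, at 46.7% and 43.1% against 60.3% and 47.2%. The shares of a library are parts of the same sum, so they do not change separately. Unc5d was 3.09 and 2.52 times the level of Unc5c in the GFP-negative libraries and 0.92 and 0.80 times in the GFP-positive ones. By longest transcript these ratios were 1.56 and 1.27 against 0.46 and 0.40. Unc5d was 1.38 times the level of Dcc in both GFP-negative libraries and 0.61 and 0.57 times in the GFP-positive ones. By longest transcript the ratios to Dcc were 1.079 and 1.085 against 0.48 and 0.44, so the GFP-negative levels were close. The level of Dcc was 0.41 and 0.38 times that of Neo1 in GFP-negative and 0.14 and 0.25 times in GFP-positive cells.

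**Figure D3:**
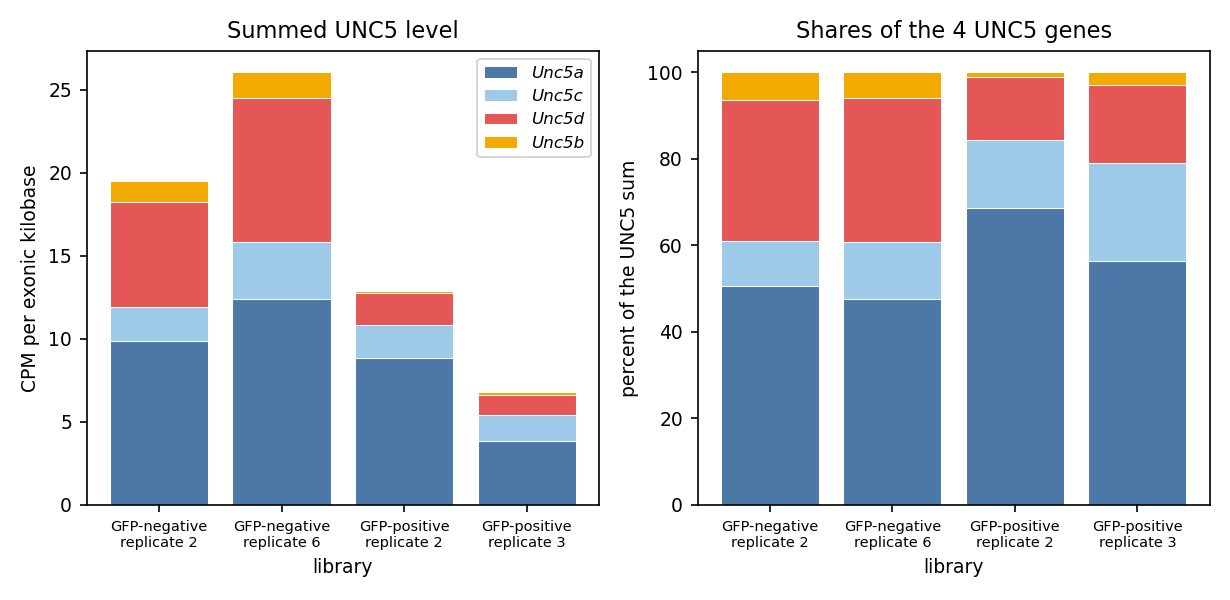
Levels of the 4 UNC5 genes in each library, stacked, in CPM per exonic kilobase (left) and as percent of their sum (right). Each bar is 1 library. The summed level is 19.5 and 26.1 in the GFP-negative and 12.9 and 6.82 in the GFP-positive libraries, and the Unc5d share is 32.5% and 33.3% against 14.6% and 18.0%.

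The genes whose pattern over the 4 libraries was most like that of Unc5d were Ndst3, an enzyme of heparan sulfate synthesis, Id4, an inhibitor of basic helix-loop-helix factors, and Syt12, a synaptotagmin. Likeness was the root-mean-square difference of log2 CPM after centring each gene, over 11657 genes, and came to 0.07, 0.08 and 0.08. Genes of low level, predicted genes, RIKEN clones and pseudogenes were left out of the search. How often other genes have matches this close over 4 libraries was not tested. Id4 stood at 643 and 964 CPM in the GFP-negative and at 180 and 129 CPM in the GFP-positive libraries. For Unc5b the nearest were Cdh8, a classical cadherin, at 0.09, Ppp1r3c, a glycogen-targeting phosphatase subunit, at 0.16, and Aff2 at 0.22. Cdh8 stood at 82.5 and 106 CPM in the GFP-negative and at 8.29 and 15.1 CPM in the GFP-positive libraries. Among the members themselves, Dcc was nearest to Unc5a (0.26) and Unc5c (0.26), and Unc5b was nearest to Unc5d (0.58).

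Other genes of the netrin pathway were taken from 6 lists of 49 genes in all. Of these, 48 were tested and 0 passed in edgeR in either direction, beside 1.10% of all tested genes. At an unadjusted p under 0.05 there were 6 in edgeR, among them Hjv, Flrt2, Flrt3, Dscaml1 and Dapk1, where 12.6% of all tested genes stood under it. DESeq2 called 3 (Hjv, Flrt2 and Dapk1), beside 4.39% of all genes in that fit, and limma-voom 0, beside 0.513%. The median log2 fold change of the 48 was -0.11, with 20 positive and 28 negative values.

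Among other ligands of these receptors, the FLRT genes Flrt2 and Flrt3 had the higher values in GFP-positive cells, opposite to Unc5d and Unc5b. Flrt2 stood at 57.9 and 64.3 CPM in the GFP-negative and at 355 and 138 CPM in the GFP-positive libraries (log2 fold change 2.01 ± 0.45, edgeR adjusted p = 0.0932). Flrt3 stood at 50.7 and 69.2 against 205 and 101 CPM (1.35 ± 0.40, edgeR adjusted p = 0.207). The fractions did not overlap for either gene, as for 43.8% of all tested genes, and GFP-positive replicate 2 was far above replicate 3 for both genes. Flrt1 stood at 7.34 and 9.38 against 4.79 and 6.90 CPM. Draxin, a secreted antagonist that binds netrin-1 and DCC, stood at 7.51 and 6.98 against 18.6 and 9.74 CPM (edgeR adjusted p = 0.485). Of the neogenin ligands, Rgmb was abundant at 108 and 177 against 122 and 88.0 CPM, Rgma stayed at or below 1.03 CPM, and Hjv had 43 and 65 counts against 0 in both GFP-positive libraries. With a floor of 3 counts for both GFP-positive libraries together, the pooled Hjv level was at least 43.2-fold below that of the GFP-negative libraries. This bound leaves out the spread between libraries, and Hjv did not pass (edgeR adjusted p = 0.209). The median of the 7 ligands was -0.23, also with Hjv at this bound.

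Ntn3, another secreted netrin, stood at 11.7 and 7.60 CPM in the GFP-negative and at 12.03 and 16.6 CPM in the GFP-positive libraries (edgeR adjusted p = 0.667). Ntn5 had 0 counts in all 4 libraries, which allows up to 0.0631 to 0.0838 CPM by library. With Ntn1 near 0, Ntn3 and Ntn4 were thus the secreted netrins with counts well above the floor. The list of netrin-G partners holds the 3 NGL genes. Lrrc4c, the partner of the Ntng1 product, stood at 62.4 and 142 against 73.7 and 38.4 CPM, and Lrrc4, the partner of the Ntng2 product, at 21.4 and 21.7 against 13.7 and 9.88 CPM. Lrrc4b, whose product binds LAR-family phosphatases and not the netrin-G proteins, stood at 59.4 and 84.8 against 57.7 and 52.6 CPM. All 3 had negative log2 fold changes (median -0.87), as had 8532 of all 17940 tested genes, and none passed (edgeR adjusted p of 0.416 or above). The median is the value of Lrrc4c, whose fractions overlapped and whose replicate 2 libraries differed in the opposite direction.

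Of 8 genes listed as other proposed netrin receptors or their relatives, 4 had positive and 4 negative log2 fold changes (median 0.003). Dscam, an adhesion molecule of retinal spacing and layering that also binds netrin-1, stood at 237.6 and 276.5 against 271 and 116 CPM. Its relative Dscaml1 stood at 78.2 and 37.0 against 168 and 114 CPM (1.29 ± 0.41, edgeR adjusted p = 0.249). Among the integrins, Itga3 stood at 55.4 and 28.6 against 57.3 and 73.4 CPM, Itga6 at 7.17 and 3.16 against 6.71 and 16.6 CPM, Itgb1 at 68.1 and 60.8 against 63.6 and 49.95 CPM, and Itgb4 stayed at or below 0.53 CPM. Mcam (2.79 to 4.52 CPM) and Adora2b (2.10 to 2.78 CPM) were low in every library, with overlapping fractions. The 19 genes of signalling below DCC had a median of -0.002, with values from -0.75 to 1.25. The most abundant of them per kilobase were Cdc42, a small GTPase of the cytoskeleton, at 604 and 903 against 528 and 479 CPM, and Pitpna, a phosphatidylinositol transfer protein that binds DCC, at 391.5 and 614 against 358 and 283 CPM. Among 10 genes of receptor-linked cell death and turnover the median was -0.18. The most abundant per kilobase were Maged1, which binds UNC5 receptors, and Siah1a, a ubiquitin ligase that targets DCC. Maged1 stood at 1248 and 1646 against 1069 and 842 CPM, and Siah1a at 117 and 111 against 139 and 128 CPM. Dapk1, a kinase of UNC5-linked cell death, stood at 211 and 208.5 against 104 and 62.0 CPM (-1.33 ± 0.35, edgeR adjusted p = 0.154).

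**Figure D4:**
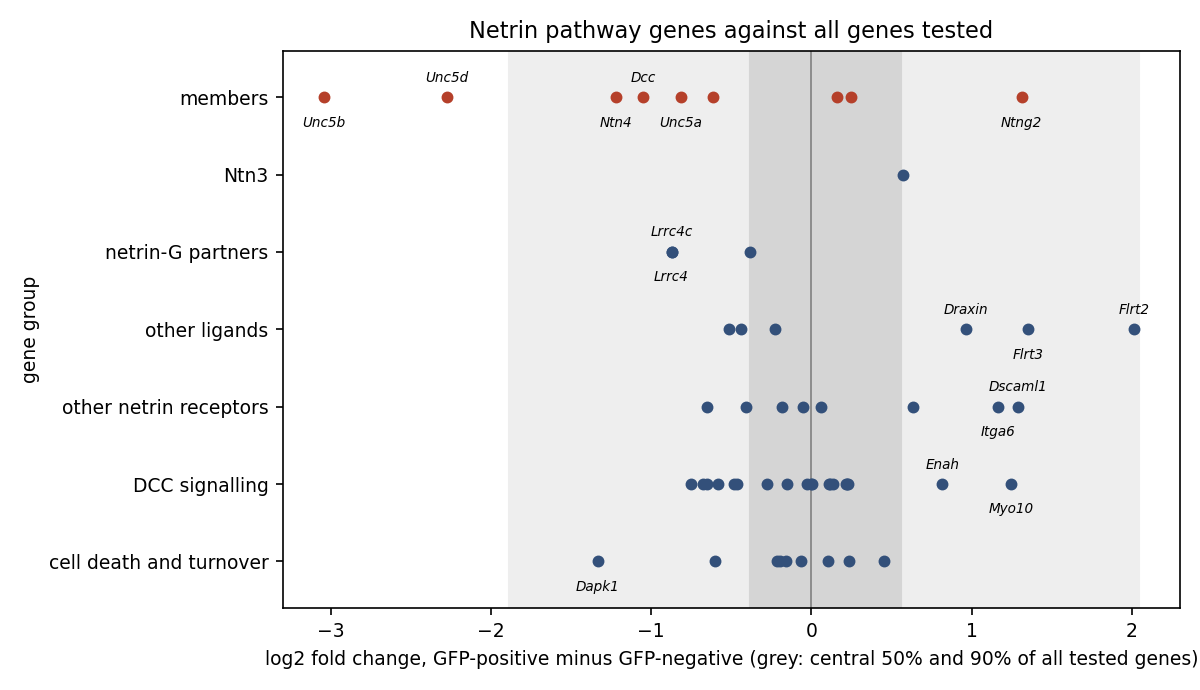
Log2 fold changes (GFP-positive minus GFP-negative) of the 9 tested members in red and of 46 pathway genes in blue, by group. Hjv, at 0 counts in GFP-positive cells, is left out, as is 1 gene not reported here. Grey bands hold the central 50% (-0.39 to 0.56) and 90% (-1.89 to 2.04) of all 17940 tested genes, and Unc5b and Unc5d lie outside the wider band.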

How the data were processed

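RNA from sorted cells was made into libraries with a SMART-Seq ultra low input kit, per the labels' protocols. The authors deposited raw read counts per Ensembl gene. Per the submitters' processing notes, the tools included Trimmomatic, STAR 2.7.3a, MultiQC and limma, with genome build GRCm38 and no roles stated. How reads were counted, and whether by strand, is not stated in the sources used here, so overlapping genes cannot be told apart. A second, scaled table of the same libraries was not used here.

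The fractions were tested in edgeR 4.0.16 (R 4.3.3), with TMM scaling, filterByExpr (minimum count 10, minimum total 15), a robust quasi-likelihood fit of the edgeR 4 type (legacy turned off) and glmQLFTest over 17940 genes, with Benjamini-Hochberg adjusted p under 0.05 as a call. The edgeR 4 type was kept from an earlier analysis of these data after the results of both types had been seen. Standard errors were derived from each log2 fold change and its F statistic. The script was also run on simulated data, and the outcome of that run is not given here. GENCODE M21 (GRCm38) gave coordinates and exonic lengths for 55144 of 55471 genes, and RefSeq (GRCm38.p6) gave promoters for 7 of 10 members. Alternatives were other scalings and filters, DESeq2 1.42.0, limma-voom (limma 3.58.1), leaving out each library, and leaving out rod and mitochondrial genes. The legacy and the non-robust quasi-likelihood fits, and shares by longest transcript, were added after seeing the data.

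Members and lists were chosen with earlier results of these data known. Named genes are the 10 members, any gene of a list of up to 8, from longer lists called genes and the 2 most abundant per kilobase, and the 3 nearest patterns of the 2 members with the smallest adjusted p. Dapk1 falls outside this rule and was named after its values were seen. The values of 1 gene of the lists are not reported here.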

Additional observations from a re-analysis of the deposited data

How the results depend on the processing

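All 14 alternatives kept the direction of Unc5d, Unc5b, Dcc, Unc5a, Unc5c and Ntn4, and the 13 that tested it kept that of Ntng2. Ntng1 and Neo1 reversed when 1 library was left out, Ntng1 reaching -0.05 and -0.13 (range up to 0.53) and Neo1 -0.15 and -0.71 (range up to 0.68). Members called numbered 1 in the main analysis, 2 in DESeq2 (Unc5d and Unc5b), 0 with no filter, in limma-voom and in the legacy fit, and 0 to 1 with 1 library left out. Unc5d was called in 8 of 14 alternatives. Genes called over the whole table numbered 198, against 106 with no filter, 787 in DESeq2, 92 in limma-voom, 48 in the legacy fit and 1 to 336 with 1 library left out (336 or 1 on leaving out the GFP-negative replicate 2 or 6, and 108 or 5 on leaving out the GFP-positive replicate 2 or 3). DESeq2 called 2 genes among the other ligands and 1 among those of cell death and turnover, where edgeR called 0. The causes were not tested. Library size as the only scaling put the median log2 fold change of all genes at 0.21, against 0.04 with TMM, and Unc5d at -2.10. In a fit with 1 library left out, the lone library of a fraction is assumed to vary like the others. No paired analysis was possible because the fractions share 1 replicate number and a block would leave no residual degree of freedom.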
